A study of Homo sapiens with 6 samples.

Results

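The EGFR family set holds 10 genes, taken by symbol from a table of 22503 genes: the receptors EGFR, ERBB2 and ERBB3, the EGF-like ligands HBEGF, AREG, EREG, TGFA, BTC and EPGN, and the receptor inhibitor ERRFI1. Their transcripts were counted by RNA sequencing in CAL-27, a cell line established from a tongue squamous cell carcinoma. In all, 3 libraries came from cells kept for 48 h with DHA and 3 from cells kept as long with DMSO, the solvent. The series concerns artemisinin derivatives, so DHA is taken here to mean dihydroartemisinin, and no dose is stated in the labels. All libraries come from the same line, so they describe that line only. Whether each library had its own culture is not stated, so the p-values rest on a spread between libraries that may be technical only.

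ERBB receptors are tyrosine kinases of the cell surface. Ligand binding joins receptors into dimers, which phosphorylate each other and pass the signal to the RAS and MAP kinase cascade and to PI3 kinase. The ligands are made as membrane-bound precursors that proteases release, so their transcripts do not report how much free ligand is present. In squamous epithelium these ligands often act on the cells that make them, and EGFR is commonly abundant in squamous carcinomas of the head and neck.

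In DHA, 3 of the 6 ligands rose, namely HBEGF 2.88-fold, AREG 2.01-fold and EREG 2.12-fold, while TGFA and BTC gave no call and EPGN was too rare to test. All 3 receptors had lower estimates, 0.679-fold for EGFR, 0.766-fold for ERBB2 and 0.693-fold for ERBB3, and none passed the test. ERRFI1 gave no call. Of the 10 genes, 9 passed the filter on low counts, and 3 of these 9 were called, all higher. Over all 14649 genes tested, 2.70% were called, 1.10% higher and 1.60% lower. A call is an adjusted p below 0.05 in the quasi-likelihood F test of edgeR, with p-values adjusted by the Benjamini-Hochberg method across all genes that passed the filter. The groups did not overlap for 5 of the 9, 3 higher and 2 lower, against 27.8% of all genes tested, 14.3% higher and 13.5% lower.

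**Figure D1:**
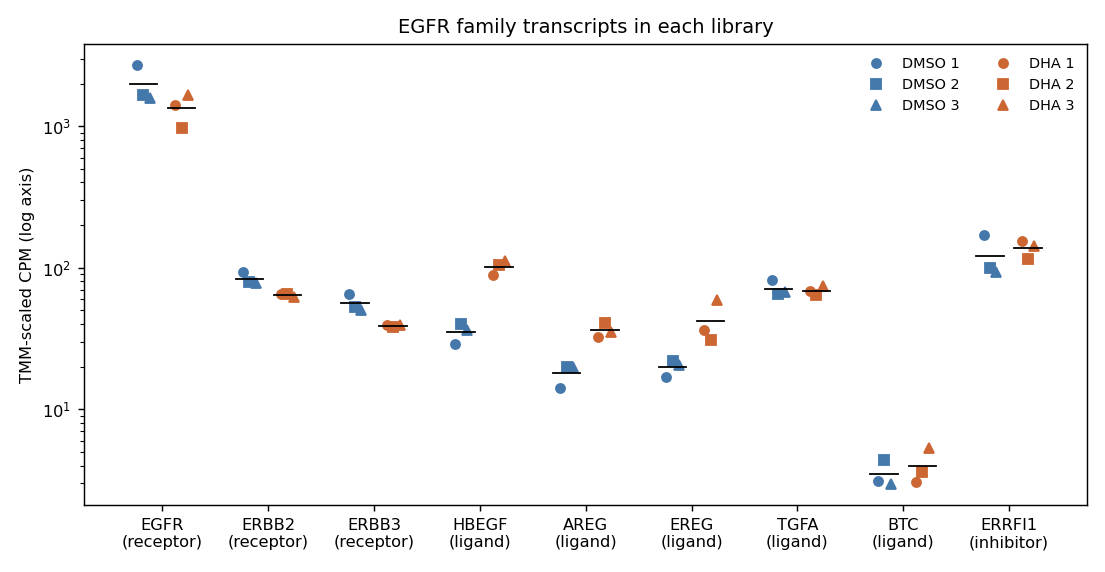
Level of each of the 9 tested transcripts in each library, as TMM-scaled CPM on a log axis. Each point is a library, symbols mark the replicate number, which was not taken to pair libraries, and black lines are means of 3 libraries. HBEGF, AREG and EREG are higher in every DHA library than in any DMSO library, ERBB2 and ERBB3 are lower in every DHA library, and EGFR overlaps.

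The promoters of the 3 ligands called higher in DHA are shown with that of EGFR, the most abundant member, which was not called. Within DHA the 3 ligands did not share an order of libraries. AREG was highest in DHA 2, and HBEGF and EREG were highest in DHA 3. Each is the stretch of 250 bases just before the annotated start (RefSeq, GRCh38.p14, gene strand), at chr5:140346604-140346853 (minus strand) for HBEGF, chr4:74444886-74445135 (plus) for AREG, chr4:74364895-74365144 (plus) for EREG and chr7:55018767-55019016 (plus) for EGFR. Capitals mark matches to any of 5 motifs.
HBEGF: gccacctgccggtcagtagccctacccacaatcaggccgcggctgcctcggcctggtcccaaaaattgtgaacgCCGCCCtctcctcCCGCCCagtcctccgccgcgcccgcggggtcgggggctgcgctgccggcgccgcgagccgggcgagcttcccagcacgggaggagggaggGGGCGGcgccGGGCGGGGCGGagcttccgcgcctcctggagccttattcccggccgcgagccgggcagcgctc
AREG: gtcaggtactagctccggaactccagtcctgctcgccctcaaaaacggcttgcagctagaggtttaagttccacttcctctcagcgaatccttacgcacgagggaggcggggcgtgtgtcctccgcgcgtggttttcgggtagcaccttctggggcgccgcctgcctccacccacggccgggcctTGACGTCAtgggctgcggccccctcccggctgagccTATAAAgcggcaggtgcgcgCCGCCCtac
EREG: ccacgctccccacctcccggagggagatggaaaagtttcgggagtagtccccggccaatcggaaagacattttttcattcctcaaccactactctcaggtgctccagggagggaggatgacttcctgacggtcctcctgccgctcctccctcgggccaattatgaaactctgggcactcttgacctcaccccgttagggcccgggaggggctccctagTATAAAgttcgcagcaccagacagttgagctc
EGFR: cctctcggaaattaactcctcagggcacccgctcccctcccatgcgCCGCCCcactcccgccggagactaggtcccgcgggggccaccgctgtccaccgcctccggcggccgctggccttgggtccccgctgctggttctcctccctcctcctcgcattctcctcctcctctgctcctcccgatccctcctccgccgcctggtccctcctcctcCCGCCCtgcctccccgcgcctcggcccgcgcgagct
The motifs searched were the AP-1 site TGANTCA, the cyclic AMP response element TGACGTCA, the ATF4-type element TGATGNAA and the GC box GGGCGG, all on both strands, and the TATA box TATAAA on the gene strand only. AREG held the cyclic AMP response element at 65 to 58 bases before its start, and 1.65% of 35116 promoter stretches of the same length hold one. AREG and EREG each held a TATA box, at 29 to 24 and at 32 to 27 bases before the start, as do 6.8% of all stretches. Among members not shown, EPGN, which was close to undetected, also held one, at 29 to 24 bases before its start. ERBB2, TGFA, BTC and ERRFI1 held no TATA box. HBEGF held no TATA box and 5 GC boxes, of which a pair overlap by 1 base, and EGFR held no TATA box and 2 GC boxes. AREG held 1 GC box, at 9 to 4 bases before its start, and EREG held 0. Among members not shown, TGFA held 3 GC boxes, ERRFI1 held 1, and ERBB2, BTC and EPGN held 0. At least 1 GC box is held by 42.6% of all stretches. The AP-1 site (6.57% of all stretches) and the ATF4-type element (3.14%) had 0 matches in the 4 stretches shown. A match is a run of letters and does not show that a factor binds there. Of the 10 genes, 9 were found in the promoter table.

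HBEGF encodes heparin-binding EGF-like growth factor, a ligand of EGFR and ERBB4. It stood at 28.8, 40.3 and 36.4 CPM in the DMSO libraries and at 88.1, 105 and 111 CPM in the DHA libraries. The lowest DHA library was thus far above the highest DMSO library. On the log2 scale DHA exceeded DMSO by 1.53 ± 0.16 (SE, edgeR's adjusted p = 0.00498), and the 95% interval ran from 2.24-fold to 3.71-fold. By p-value it was the gene at rank 10 of all genes tested. It was called with each of the 6 libraries left out in turn, with adjusted p-values from 0.0077 to 0.0203 by edgeR. The gene lies on chromosome 5 at 140332843 to 140346603 (GRCh38.p14), on the strand opposite to the numbering.

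AREG encodes amphiregulin, which binds EGFR. Its levels were 14.2, 19.8 and 19.8 CPM in DMSO and 32.3, 40.6 and 35.2 CPM in DHA. DMSO 1 was the lowest of the 6 libraries, and the groups did not overlap. The means were 17.96 ± 3.24 CPM in DMSO and 36.04 ± 4.17 CPM in DHA (SD, n = 3), and the log2 difference was 1.005 ± 0.173 (SE, edgeR's adjusted p = 0.0215). The call was lost without DMSO 2 (adjusted p = 0.0684) and without DHA 1 (adjusted p = 0.0723), while the log2 fold change stayed between 0.86 and 1.08.

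EREG encodes epiregulin, a ligand of EGFR and ERBB4. It was at 17.0, 22.0 and 20.6 CPM in DMSO and at 36.2, 30.8 and 59.6 CPM in DHA. DHA 3 alone was far above the other libraries, and DHA 2 was closest to the DMSO range. The SD was thus much larger in DHA, at 15.3 CPM against 2.61 CPM in DMSO (n = 3), and the log2 difference was 1.09 ± 0.24 (SE, edgeR's adjusted p = 0.046). The call held only without DHA 2 (adjusted p = 0.0294) or without DHA 3 (adjusted p = 0.0356), and it was lost without DMSO 1, DMSO 2, DMSO 3 or DHA 1 (highest adjusted p = 0.129). Without DHA 3 the log2 fold change was 0.76.

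AREG and EREG are neighbors on chromosome 4, at 74445136 to 74455005 and 74365145 to 74388749, with 56386 bases between them. EPGN and BTC lie in the same stretch of 486054 bases, EPGN on the far side of EREG and BTC on the far side of AREG. Of these 4 neighbors, AREG and EREG rose, while BTC was near its DMSO level and EPGN was close to undetected.

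BTC encodes betacellulin, a ligand of EGFR and ERBB4. It was at 3.14, 4.41 and 2.94 CPM in DMSO and 3.06, 3.62 and 5.29 CPM in DHA. The groups overlapped, and the highest value was again that of DHA 3. The log2 fold change was 0.19 ± 0.27 (SE, edgeR's adjusted p = 0.711), and its interval of 0.749-fold to 1.74-fold leaves room for a moderate change in either direction. EPGN, which encodes epigen, had 4 reads in DMSO 2, 1 read in DHA 3 and 0 in the other 4 libraries, where 3 counts would correspond to 0.0789 to 0.083 CPM. No difference in EPGN could be detected at this depth.

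TGFA encodes transforming growth factor alpha, a ligand of EGFR. It was at 81.6, 64.8 and 67.4 CPM in DMSO and 68.4, 63.9 and 74.3 CPM in DHA. DMSO 1 was highest, and the other 5 libraries lay close together. The log2 fold change was -0.05 ± 0.14 (SE, edgeR's adjusted p = 0.858), with an interval of 0.78-fold to 1.2-fold. The fold changes of HBEGF, AREG and EREG all lie above that interval.

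**Figure D2:**
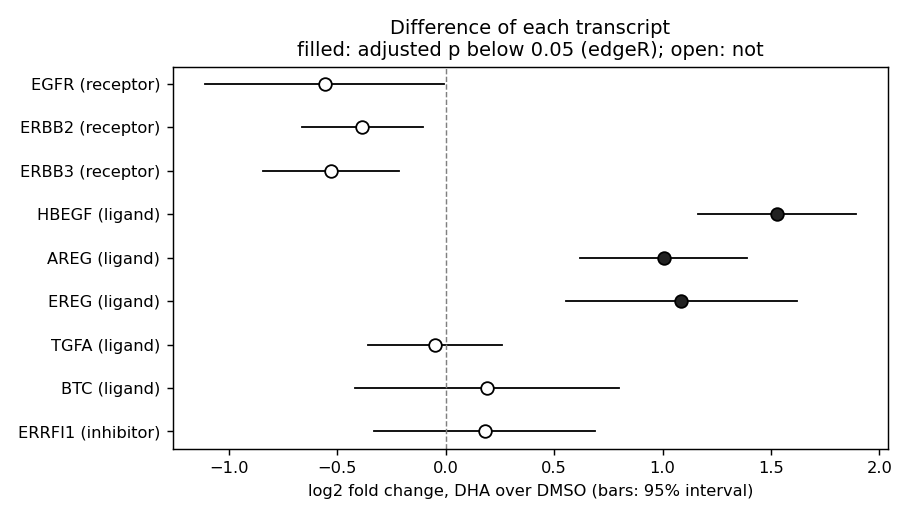
Log2 fold change of DHA over DMSO for the 9 tested transcripts, with 95% intervals from edgeR's quasi-likelihood fit over 6 libraries. Filled points are calls at an adjusted p below 0.05. HBEGF, AREG and EREG are filled and above 0, the receptors are open and below 0, and the intervals of TGFA, BTC and ERRFI1 span 0.

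EGFR was by far the most abundant member. It was at 2706, 1669.8 and 1583 CPM in DMSO and at 1409, 973 and 1663 CPM in DHA. DMSO 1 was well above the other DMSO libraries, DHA 2 was lowest, and DHA 3 lay within the DMSO range. The mean was 1986 ± 625 CPM in DMSO and 1348 ± 349 CPM in DHA (SD, n = 3), and the log2 difference was -0.56 ± 0.25 (SE, edgeR's adjusted p = 0.241). Without DMSO 1 it was -0.27 (adjusted p = 0.537 by edgeR), and without DHA 3 it was -0.73 (adjusted p = 0.0972). The gene spans 55019017 to 55211628 on chromosome 7. An antisense gene, EGFR-AS1, overlaps it and had 17 to 93 reads per library. The sources name no strand setting for the counting, so reads of such a pair cannot be told apart with certainty.

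ERBB2 encodes the receptor that has no known ligand and serves as a dimer partner of the others. It was at 92.6, 79.1 and 78.5 CPM in DMSO and 65.1, 64.9 and 61.7 CPM in DHA. The DHA libraries were close together and all below DMSO. The log2 fold change was -0.38 ± 0.13 (SE, edgeR's adjusted p = 0.138), an interval of 0.631-fold to 0.931-fold before any adjustment. MIEN1 and PGAP3 overlap ERBB2 on the opposite strand, with 989 to 1968 and 407 to 527 reads per library.

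ERBB3 encodes a neuregulin receptor with a weak kinase that signals mainly by recruiting PI3 kinase. It was at 65.4, 53.1 and 50.03 CPM in DMSO and at 39.3, 38.3 and 39.1 CPM in DHA. As with ERBB2, the 3 DHA libraries were nearly equal and lay below every DMSO library. The log2 fold change was -0.53 ± 0.14 (SE, edgeR's adjusted p = 0.0834). The call thus missed the threshold, also in all 6 fits with a library left out (adjusted p from 0.0683 to 0.278). It passed in the DESeq2 Wald test (adjusted p = 0.0173), in which 7.75% of all genes were called, 3.09% higher and 4.66% lower.

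ERRFI1 encodes an adaptor, also called MIG6, that binds the kinase domain of ERBB receptors and inhibits it. It was at 170.3, 99.9 and 93.3 CPM in DMSO and at 155, 115 and 142 CPM in DHA. DMSO 1 was the highest of all 6 libraries, and the other DMSO libraries were the lowest. The log2 fold change was 0.18 ± 0.23 (SE, edgeR's adjusted p = 0.673), and without DMSO 1 it was 0.50 (adjusted p = 0.157).

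DMSO 1 stood apart from the other DMSO libraries in EGFR, ERRFI1, TGFA, ERBB2 and ERBB3, where it was highest, and in HBEGF, AREG and EREG, where it was lowest. Over the tested genes its log2 levels also differed from DMSO 2 and DMSO 3 by a root mean square of 0.327 and 0.344, against 0.147 between DMSO 2 and DMSO 3. The chi-square per gene of that pair averaged 6.62, beyond sampling noise, and they counted as separate libraries. Within DHA the root mean square was 0.251 between DHA 1 and DHA 2 and 0.262 between DHA 1 and DHA 3. Between DHA 2 and DHA 3 it was 0.412, the largest within either group. Library totals were 35980670 to 38120267 reads over genes. The squamous keratinocyte markers fixed for the check, among them KRT5, KRT14 and TP63, were all above 5 CPM, and 1 of the 10, KRT6A, was called (log2 fold change 0.75, edgeR's adjusted p = 0.0402). Their summed level was 5924 to 7668 CPM in DMSO and 4531 to 5283 CPM in DHA, and its part in the results was not tested. KRT17 went from 1592 ± 827 to 717 ± 185 CPM and KRT5 from 2326 ± 66.5 to 1844 ± 158 CPM (SD, n = 3). Neither was called by edgeR, and the means of KRT14, SFN and KRT6A were higher in DHA. Fewer cells of a kind and less RNA per cell cannot be told apart in such samples. Of 7 fibroblast genes in the table, 5 had a mean below 1 CPM (COL3A1, DCN, LUM, PDGFRA and FAP), COL1A1 and COL1A2 were above it, and 0 were called by edgeR. Their summed level was 12.9 to 22.9 CPM in DMSO and 8.77 to 12.2 CPM in DHA, so the groups did not overlap. Of single genes tested, 13.5% were lower in DHA without overlap. Of 4 endothelial genes, PECAM1, VWF and TEK were below 1 CPM and CDH5 was above it, with a sum of 16.9 to 26.6 CPM in DMSO and 15.6 to 18.8 CPM in DHA and 0 calls by edgeR. Of 4 immune cell genes, LYZ and CD79A were below 1 CPM and CD68 and CD14 above it, with a sum of 44.0 to 46.5 CPM in DMSO and 34.7 to 47.4 CPM in DHA. CD14 fell from a mean of 5.64 ± 0.912 CPM to 2.20 ± 0.479 CPM with DHA (SD, n = 3, edgeR's adjusted p = 0.0240). Calls in all the marker lists are to be read against the 2.70% called over all genes tested. The part of these lists in the results was not tested either.

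**Figure D3:**
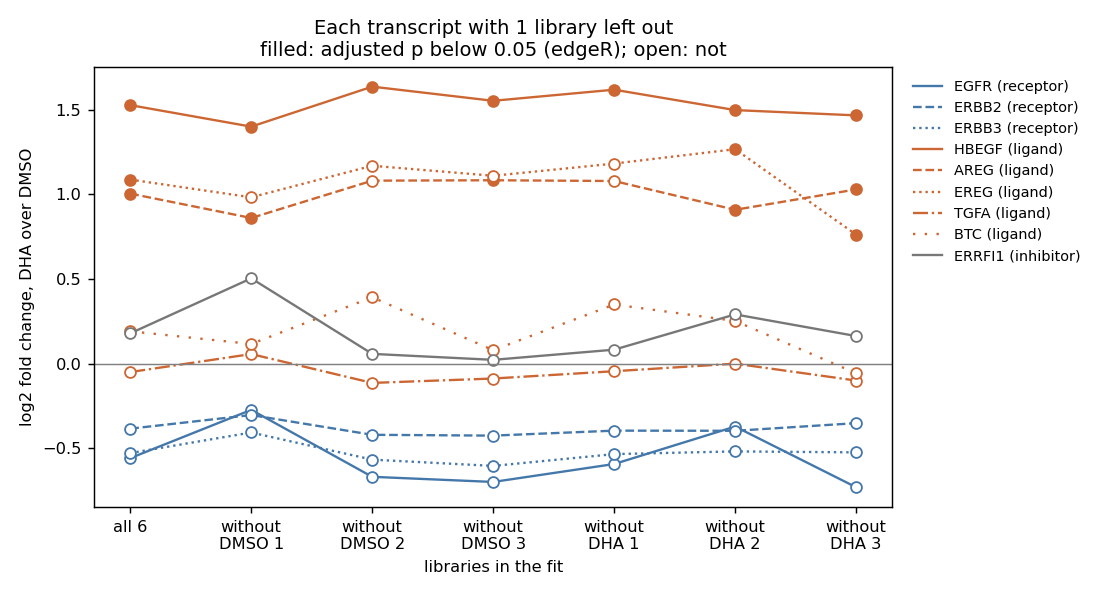
Log2 fold change of each tested transcript with all 6 libraries and with 1 library left out, from edgeR. Filled points are calls at an adjusted p below 0.05. HBEGF stays filled throughout, between 1.40 and 1.64, AREG is open without DMSO 2 and without DHA 1, EREG is filled in 2 of the 6 left-out fits, and no receptor is filled.

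Levels of different genes were compared per length, as TPM, counts divided by length and scaled to the same total in each library, over the union of GENCODE 29 exons. In DMSO, EGFR was at 727 ± 222 TPM, ERRFI1 at 133 ± 45.6, TGFA at 65.9 ± 7.82, HBEGF at 53.5 ± 9.25, AREG at 50.1 ± 9.40, ERBB2 at 37.1 ± 3.23, ERBB3 at 28.5 ± 3.87, EREG at 16.0 ± 2.20 and BTC at 5.70 ± 1.31 TPM (SD, n = 3). The neighbors TGFA and HBEGF, HBEGF and AREG, and AREG and ERBB2 overlapped in range, and the other neighbors in that order did not. In DHA the order was EGFR at 466 ± 161, HBEGF at 143 ± 24.2, ERRFI1 at 140 ± 30.6, AREG at 92.6 ± 7.73, TGFA at 59.3 ± 10.1, EREG at 32.1 ± 14.5, ERBB2 at 26.3 ± 1.97, ERBB3 at 18.3 ± 1.97 and BTC at 6.11 ± 2.28 TPM (SD, n = 3). HBEGF thus went from the fourth to the second place, although HBEGF and ERRFI1, and EREG and ERBB2, overlapped in range. With the longest coding transcript as the length, ERBB2 took the third place in DMSO and HBEGF the third in DHA, behind ERRFI1.

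Taken as sums, the ligand transcripts were higher relative to the receptor transcripts in every DHA library than in any DMSO library. Summed over the 6 ligands, the level was 176, 202 and 196 TPM in the DMSO libraries and 300.4, 302 and 397 TPM in the DHA libraries. Summed over the 3 receptors, it was 1057, 677 and 645 TPM in DMSO and 528, 338 and 666 TPM in DHA. The ligand sums of the groups did not overlap, while the receptor sums did through DHA 3.

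Per 100 TPM of receptors there were 16.7, 29.9 and 30.3 TPM of ligands in DMSO and 56.9, 89.5 and 59.6 TPM in DHA. The means were 25.6 ± 7.77 and 68.6 ± 18.1 (SD, n = 3), which is 2.68 times as many in DHA. This ratio is taken within a library and does not depend on how libraries are scaled. No test was run on these sums, because the members had been chosen with results known. EGFR made up 91.5 ± 1.36% of the receptor sum in DMSO and 90.7 ± 2.42% in DHA, so the receptor sum is nearly that of EGFR.

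The makeup of the ligand sum differed as well. TGFA was its largest component in DMSO 1 and DMSO 3, with 42.5% and 32.1%, and held 29.7% in DMSO 2, just below the 30.4% of HBEGF. In DHA, TGFA held 19.7%, 16.3% and 17.5%. HBEGF went from 27.8 ± 2.93% to 42.9 ± 1.19% of the sum (SD, n = 3). AREG held 26.0 ± 3.29% and 28.1 ± 3.07%, and EREG 8.32 ± 0.575% and 9.36 ± 2.71%, each within its spread.

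**Figure D4:**
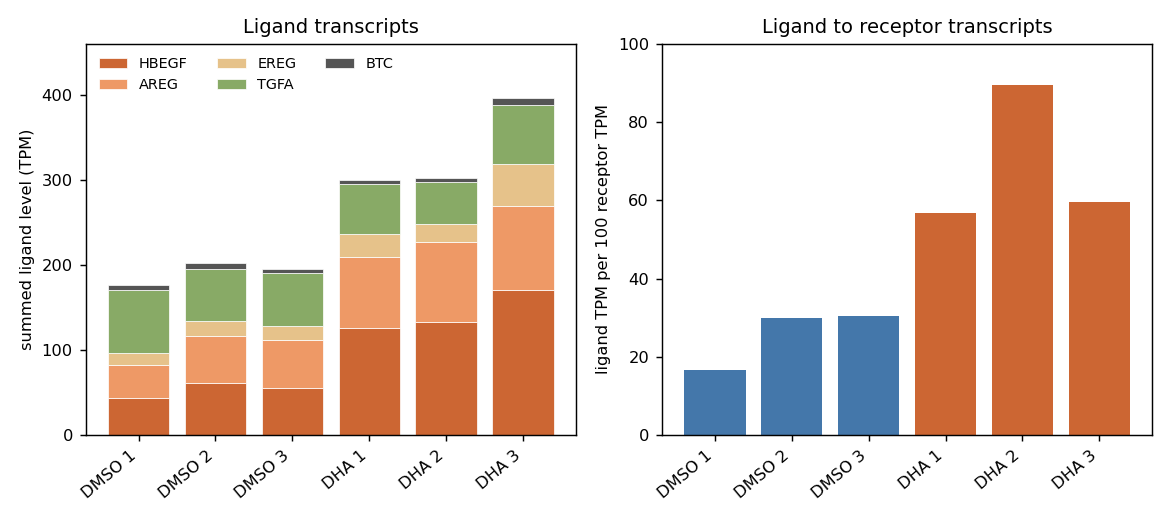
Left, summed level of the ligand transcripts in each library in TPM, stacked by gene (EPGN is too low to draw). Right, TPM of ligands per 100 TPM of receptors in each library. The DHA libraries reach 300.4 to 397 TPM of ligands and 56.9 to 89.5 per 100 receptors, above all DMSO libraries.

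The rest of the pathway was read from lists of genes that are no members. These lists were chosen with earlier results of these data known, so their counts are no independent support. In the ERK output list, whose genes are commonly induced by MAP kinase signaling, 8 of 10 tested had an unadjusted p under 0.05. Over all genes tested that share was 20.3%. The list median log2 fold change was 0.69, against 0.00 over all genes tested. Against 1.10% called higher and 1.60% lower over all genes, 0 of the 10 fell and 5 rose. They were FOSL1, an AP-1 subunit (1.13 ± 0.13, adjusted p = 0.00598), the ERK phosphatase DUSP5 (0.98 ± 0.14, adjusted p = 0.0125), the ETS factor ETV5 (0.91 ± 0.14, adjusted p = 0.0159), the MAP kinase phosphatase DUSP4 (0.87 ± 0.13, adjusted p = 0.0159) and PHLDA1 (0.83 ± 0.16, adjusted p = 0.0293), each as log2 fold change ± SE by edgeR. FOSL1 was at 95.5, 116 and 113 CPM in DMSO and 247, 223 and 238 CPM in DHA. EGR1, an immediate early factor of the same list, was at -0.33 ± 0.17 (adjusted p = 0.295 by edgeR). Without DHA 1 the list held 0 calls, as did all the other pathway lists.

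The receptor adaptors and the MAP kinase cascade gave 0 calls among 21 by edgeR, with 4 at an unadjusted p under 0.05. Over all genes tested, 20.3% had an unadjusted p under 0.05, and list counts at that threshold are to be read against that share. Counts of calls are to be read against 2.70% of all genes, 1.10% higher and 1.60% lower. The median log2 fold change of this list was -0.05. The largest estimates were those of GAB2, a docking protein (0.62 ± 0.17, adjusted p = 0.0967), and of the small GTPase gene HRAS (0.53 ± 0.19, adjusted p = 0.172 by edgeR). GAB2 passed in the DESeq2 Wald test (adjusted p = 0.0247) and with the replicate block (adjusted p = 0.0325 by edgeR), and HRAS passed without DHA 3 (adjusted p = 0.0311 by edgeR). The PI3 kinase branch gave 0 calls among 7 by edgeR, with 0 at an unadjusted p under 0.05 against the 20.3% of all genes, and a median of 0.00. Its largest estimates were -0.20 ± 0.20 for PIK3CA, a catalytic subunit, and 0.14 ± 0.11 for the kinase gene AKT2.

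Among 9 genes of ligand release and trafficking, 3 had an unadjusted p under 0.05, against 20.3% of all genes. By adjusted p 0 rose and 1 fell, against 1.60% of all genes called lower, with a list median of -0.15. The gene was TIMP3, an inhibitor of metalloproteases including the sheddase ADAM17. It was at 11.9, 8.27 and 7.94 CPM in DMSO and 5.02, 5.06 and 4.08 CPM in DHA, with a log2 difference of -0.99 ± 0.21 (SE, edgeR's adjusted p = 0.0439), and it missed the threshold in each fit that left out a library. ADAM17, which releases several of these ligands, was at -0.01 ± 0.14 (adjusted p = 0.988 by edgeR). ADAM10 of the same list was at 224, 230 and 227 CPM in DMSO and at 152, 117 and 198 CPM in DHA. Its log2 difference was -0.54 ± 0.18 (SE, edgeR's adjusted p = 0.140). Estimates were above 0 for 2 of the 9. Among 15 negative regulators, 5 had an unadjusted p under 0.05, against 20.3% of all genes. By adjusted p 0 rose and 1 fell, against 1.60% of all genes called lower, with a list median of -0.15. Estimates were above 0 for 5 of the 15. The largest in size was that of SPRY4, at 0.90 ± 0.23 on the log2 scale (SE, edgeR's adjusted p = 0.0732). LRIG1, a membrane protein that promotes the breakdown of ERBB receptors, went from 22.5 ± 0.623 to 13.97 ± 1.57 CPM, with a log2 difference of -0.69 ± 0.14 (SE, edgeR's adjusted p = 0.0401), and kept its call only without DHA 3 among the left-out fits.

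Of the other EGF family genes, NRG1, EGF and NRG4 could be tested, and 0 were called by edgeR, with 0 at an unadjusted p under 0.05 (20.3% of all genes). NRG1, a neuregulin that binds ERBB3, was the most abundant, at 82.5, 143 and 144 CPM in DMSO and 137, 164 and 185 CPM in DHA (log2 fold change 0.40 ± 0.22, adjusted p = 0.321 by edgeR). DMSO 1 was again lowest, and the groups overlapped. NRG4 was at 1.33 ± 0.538 and 0.92 ± 0.0357 CPM (SD, n = 3). ERBB4 had at most 4 reads in a library.

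The genes annotated to the ErbB signaling pathway in the deposited table offered a list not made by hand, added after the data were seen. Of its 74 tested genes 3 rose and 0 fell, against 1.10% of all genes called higher and 1.60% lower. The 3 were HBEGF, AREG and EREG. Among the 66 that are no members 0 were called by edgeR, against 2.70% of all genes. Of these 66, 10 had an unadjusted p under 0.05, against 20.3% of all genes, and the median log2 fold change was 0.01. Of the 10 genes in the ERK output list, MYC is the 1 that this annotation shares.

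**Figure D5:**
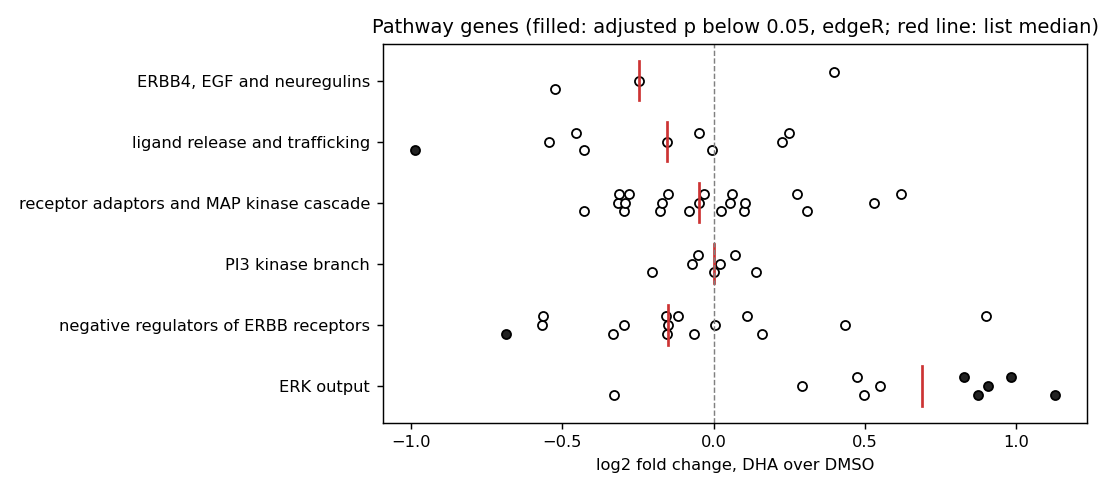
Log2 fold change of DHA over DMSO for the tested genes of 6 pathway lists, each point a gene, with the list median in red. Filled points are calls at an adjusted p below 0.05 by edgeR. The ERK output list holds 5 filled points above 0, TIMP3 and LRIG1 are the filled points below 0, and the other 3 lists hold none.

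Likeness of pattern was measured as the root mean square difference of centred log2 CPM over the 6 libraries, among 10641 genes with a mean of at least 5 CPM. The genes named are the nearest by this measure, so they lie below the median by choice, and their likeness was not tested. Among the genes nearest to HBEGF were SESN2, a stress-induced inhibitor of mTORC1, at 0.117 and CHAC1, an enzyme that degrades glutathione, at 0.169, against a median of 0.762 over all these genes. Nearest to AREG were ODC1, the first enzyme of polyamine synthesis, at 0.0666, RCAN1, a calcineurin regulator, at 0.0687 and the non-coding gene DLGAP1-AS2 at 0.0868, against a median of 0.509. Nearest to EGFR were C1RL-AS1 at 0.0313, HIVEP2, a zinc finger gene, at 0.0354 and TBC1D8B at 0.0407, against a median of 0.468. These neighbors of EGFR gave no call by edgeR (adjusted p from 0.211 to 0.255).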

How the data were processed

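Read counts per gene were analysed in 3 DMSO and 3 DHA libraries of CAL-27 cells, 48 h each. The deposited table holds raw counts in 1 column per library, matched through the names in the labels. The submitters' processing notes name fastp, HISAT2, HTSeq, R (version 3.2.0) and GRCh38, with settings, annotation and strand not given in the sources used here. By default HTSeq leaves out reads that match more than 1 gene, which could lower counts of overlapping genes.

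Genes were filtered with filterByExpr (minimum count 10), scaled by TMM and tested with edgeR 4.0.16 (quasi-likelihood F test, treatment as the factor, two-sided, Benjamini-Hochberg over 14649 genes). SE was taken as the log2 fold change over the root of F. CPM use the scaled library sizes. TPM use GENCODE 29 lengths by symbol, which held 91.0% to 93.6% of the counts. Alternatives were DESeq2 1.42.0, limma-voom (limma 3.58.1), other scalings and filters, a replicate block and each library left out. Coordinates and promoters are from RefSeq (GRCh38.p14). The members and lists were chosen with earlier results of these data known. Named are all members, of each pathway list the genes called or else the 2 with the largest change at a mean of at least 1 CPM, and for HBEGF, AREG and EGFR the 3 genes most alike, of which 1 is not reported here. EGR1, ADAM10, ADAM17, SPRY4, EGF, ERBB4, MYC, KRT17 and SFN were named after their values were seen. Intervals cover the spread between libraries, and limits from 3 counts cover counting error only. No per-sample column was left unused.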

Additional observations from a re-analysis of the deposited data

How the results depend on the processing

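HBEGF kept its call in all 14 alternative fits and AREG in 12. With library totals unscaled, at a mean of at least 5 CPM and in limma-voom, EREG missed the threshold at log2 fold changes of 1.08, 1.06 and 1.04 (adjusted p = 0.0724, 0.0597 and 0.0565). ERBB3 passed in the DESeq2 Wald test at -0.53 and with the replicate block at -0.52 (adjusted p = 0.0396 by edgeR). The cause was not tested. Genes called over all genes were 395 of those tested, against 649 with no filter, 252 at a mean of at least 5 CPM, 1135 in DESeq2 and 1272 with the replicate block, and 16 to 789 with a library left out. Members called were 1 to 3 and genes called in the pathway lists 0 to 8 with a library left out, and the lists held 12 in DESeq2 and 13 with the block, against 7. Left-out log2 fold changes ran from 0.86 to 1.08 for AREG, 0.76 to 1.27 for EREG, -0.11 to 0.06 for TGFA and -0.057 to 0.39 for BTC. TGFA changed sign without DMSO 1 (0.06) and BTC without DHA 3 (-0.057). As sums of CPM, the log2 difference of the receptors ran from -0.72 to -0.28, that of the ligands from 0.68 to 0.84 and that of ligands per receptor from 1.08 to 1.42, against 1.29 with all 6 libraries. As sums of TPM, the scale of the report, these ran from -0.87 to -0.37, 0.66 to 0.87 and 1.18 to 1.56, against 1.42 (left-out values added after the data were seen). BTC had no value above a mean of 5 CPM. The replicate numbers come from titles only, so they were not taken to pair the libraries. Deviations of same-numbered libraries correlated at 0.496, 0.245 and 0.0149, which does not settle whether they are pairs. Among the DHA libraries, DMSO 1 and DMSO 2 each correlated most with their own number, while DMSO 3 correlated more with DHA 2 than with its own number. The block changed no call of a member but that of ERBB3.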
